A study of Homo sapiens with 5 samples.

Results

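The S100 proteins analysed here are 10 small calcium-binding proteins encoded by S100A2, S100A4, S100A6, S100A8, S100A9, S100A10, S100A11, S100A14, S100A16 and S100P. They were taken by gene symbol, with every probe set that carries that symbol alone, which gave 13 of the 54675 probe sets on the array and 10 of 19775 genes. Their messenger RNA was measured on 5 Affymetrix arrays of PC-3, an established line of human prostate carcinoma. The groups are 1 array of untreated cells grown flat (2D), 1 of cells grown as spheroids, 1 of cells carrying a short hairpin RNA against GFP (shGFP, the control hairpin) and 2 of cells carrying different hairpins against TRIB1 (shTRIB1-1 and shTRIB1-2). The study asked which genes depend on growth in 3 dimensions and which depend on TRIB1, a pseudokinase that directs C/EBP transcription factors to degradation. The labels report no further treatment. A single dish protocol is listed for every sample, the spheroids too. Whether arrays came from separate cultures is not said. A p-value for the shTRIB1 arrays against shGFP rests on the spread between the 2 shTRIB1 arrays, which carry different hairpins. The test draws the spread of each gene toward that of all genes compared. The spread between the 2 shTRIB1 arrays mixes any difference between the hairpins with a spread between arrays that may be technical. The sources used here do not say how the hairpins were delivered or whether a line was 1 clone.

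S100 proteins carry a pair of EF-hand loops, mostly bind calcium, and act as dimers that attach to partner proteins when calcium rises. Inside cells they touch annexins, myosin and the cytoskeleton. Outside cells some of them, above all the S100A8 and S100A9 pair known as calprotectin, act as inflammatory ligands of RAGE (AGER) and TLR4. Most of the genes lie in a block on chromosome 1 beside the epidermal differentiation genes. Several are used as markers of epithelial stress, inflammation and carcinoma invasion.

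Values are log2 of the deposited RMA intensity, called the level, and a difference of 1 is 2-fold. Where a gene had several probe sets, the brightest on average stood for it. A gene entered a comparison when its level reached 6 on any array compared, a height used here as a floor for a usable signal. Precision is limited by the number of arrays, since arrays have no sequencing depth. Levels of different probe sets are not comparable with each other, so each gene is compared only with itself. On a bulk array, a change in every cell and a change in the share of cells that carry the transcript cannot be told apart.

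Markers of the labelled cell line were present, and the TRIB1 signal differed little between hairpins. The epithelial and PC-3 markers KRT8, KRT18, KRT19, EPCAM and VIM were at 9.39 or above on every array, and in the spheroid array all 5 were lower than in 2D, by -0.26 (VIM) to -0.79 (KRT19). The prostate luminal markers KLK3 and TMPRSS2 were listed beforehand as genes that PC-3 lacks. KLK3 gave the same level on all 5 arrays (6.90), above the filter of 6, and TMPRSS2 lay between 5.62 and 7.09. A level just above 6 therefore does not by itself show that a gene is expressed. TRIB1 was at 11.97 on the shGFP array, 11.91 on shTRIB1-1 and 11.76 on shTRIB1-2. It was lower without hairpins, at 11.04 in 2D and 11.23 in the spheroid array, so both shTRIB1 arrays carried more TRIB1 signal than the 2D array used below as a second reference. Against shGFP, TRIB1 differed by only -0.055 with shTRIB1-1 and -0.20 with shTRIB1-2, so these arrays show little depletion of its transcript. The hairpin arrays are therefore named by their labels. For the actin control, the 5′ to 3′ ratio lay between 0.436 and 0.445 on the 3 hairpin arrays, at 0.184 in 2D and at 0.131 in the spheroids. The part of this difference between arrays in the results below was not tested.

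Of the 10 S100 genes, 9 were at a level of 6 or more on all 5 arrays, and S100A8 reached that level on the spheroid array alone. S100A8 had the widest range over the arrays (4.70), followed by S100A2 (2.15), S100A9 (1.98), S100A4 (1.66), S100P (1.36) and S100A11 (1.24). S100A14 (1.00), S100A16 (0.80), S100A10 (0.49) and S100A6 (0.36) varied least. The genes did not share 1 order of arrays. The spheroid array was the highest for S100A8, S100A9, S100A11 and S100P and the lowest for S100A6 and S100A16, while the shTRIB1-1 array was the lowest for S100A2, S100A4 and S100A9. The shTRIB1-2 array was the lowest for S100A10, S100A11 and S100A14.

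**Figure D1:**
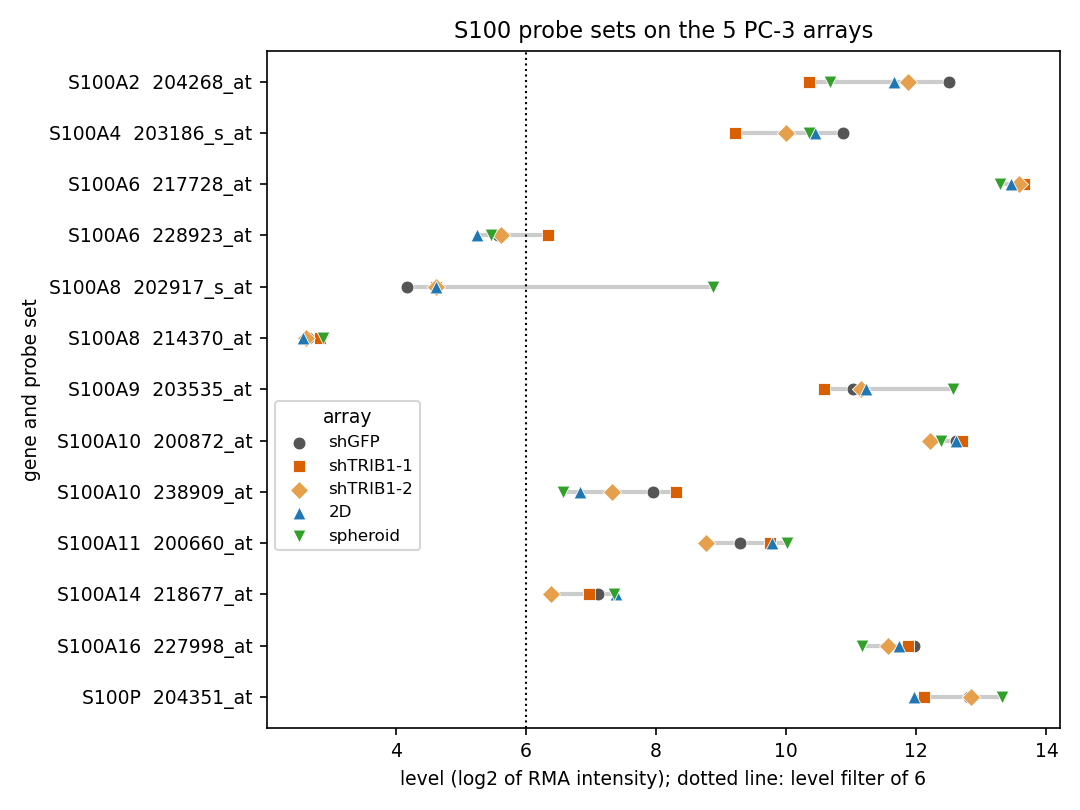
Level (log2 of RMA intensity, horizontal axis) of the 13 S100 probe sets (vertical axis) on the 5 arrays, 1 symbol per array, with a grey bar from the lowest to the highest array and a dotted line at the level filter of 6. The spheroid array stands apart for S100A8 202917_s_at (8.88 against 4.18 to 4.63), whereas the other S100A8 probe set stays between 2.58 and 2.89, and S100A6 217728_at spans only 13.29 to 13.65.

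Spheroid cells were compared with flat cells to ask which S100 genes depend on growth in 3 dimensions. S100A9 and S100P were higher in the spheroid array, by 2.51-fold and 2.57-fold, and none of the 10 genes was 2-fold lower. S100A8 was higher by at least 7.38-fold, taken against the level floor of 6 because its 2D signal lay under that floor. S100A8 entered the comparison through the spheroid array alone, so it could only count as higher. The same calls took 5.05% (higher) and 5.23% (lower) of all 10570 genes compared. Above 0 lay 4 of the 10 S100 genes (47.3% of all genes) and below 0 lay 6 (50.9%), and the median over the 10 was -0.063 against -0.0083 over all genes. Each condition had 1 array, so these differences have no replicate check and no test.

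S100A8 encodes the smaller subunit of calprotectin. Its probe set 202917_s_at had an intensity of 24.7 in 2D and 472 in the spheroid array. The levels were 4.63 in 2D, 8.88 in the spheroid array, 4.18 with shGFP and 4.63 on each shTRIB1 array. All 4 other arrays were below the level filter, 3 of them at exactly the same value, and the spheroid array was above them by at least 4.26. The difference as measured is 19.1-fold, over a reference below the floor. With 16 added to every intensity the log2 difference was 3.58. The second S100A8 probe set, 214370_at, read 2.58 in 2D and 2.89 in the spheroid array, a difference of 0.31, with 2.62 to 2.84 on the hairpin arrays. The 2 probe sets therefore disagree, and 214370_at was dim on every array. Probe sets ending in _s_at can match more than 1 transcript, and which transcripts these probes match was not tested.

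S100A9 encodes the other subunit of calprotectin, and its single probe set, 203535_at, was well above the filter everywhere. Its level was 12.56 in the spheroid array and 11.23 in 2D, a difference of 1.33 that lay at percentile 97.0. The hairpin arrays read 11.02 (shGFP), 10.58 (shTRIB1-1) and 11.15 (shTRIB1-2). The 4 other arrays thus spanned 10.58 to 11.23, and the spheroid array exceeded the highest of them by 1.33.

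S100P, which activates the membrane linker ezrin and is also a RAGE ligand, was at 13.32 in the spheroid array and 11.96 in 2D. The difference was 1.36, at percentile 97.2. The hairpin arrays were at 12.81 (shGFP), 12.13 (shTRIB1-1) and 12.84 (shTRIB1-2). The 2D array was the lowest of all 5 for this gene, and the spheroid array exceeded the highest of the other arrays by 0.48. Set against the average of 2D and shGFP, the difference was 0.94, below 2-fold.

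Counted against the nearest of the other 4 arrays, a measure added after the data were seen, S100A8 and S100A9 passed 2-fold upward in the spheroid array (1.6% of 10843 genes) and no S100 gene was 2-fold lower (1.72%). The spheroid array was above all 4 others for 4 S100 genes (24.9% of genes) and below all 4 for 2 (28.1%). S100A8 is in both upward counts but entered through the spheroid array alone, so it could only lie above.

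S100A2 was the lowest of the 10 genes in this comparison. It encodes an epithelial S100 protein found largely in the nucleus. Its level was 11.65 in 2D and 10.68 in the spheroid array, a difference of -0.98, just short of 2-fold and at percentile 5.54. The shGFP array, at 12.50, was higher than 2D, so the difference was -1.40 against the mean of both, past 2-fold. The spheroid value nevertheless lay inside the range of the other arrays, since shTRIB1-1 read 10.36 and shTRIB1-2 read 11.87.

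The other 6 genes were within 2-fold of 2D. S100A16, an epithelial member, differed by -0.57 (11.74 in 2D, 11.17 in the spheroid array), and the spheroid array was below every other array by at least 0.39. S100A10, which pairs with annexin A2 and does not need calcium to do so, differed by -0.24. Its second probe set, 238909_at, gave -0.27. S100A6 (calcyclin) differed by -0.17, S100A4 by -0.089 and S100A14 by -0.037. S100A11, a partner of annexin A1, differed by 0.22, with 9.78 in 2D and 10.01 in the spheroid array.

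**Figure D2:**
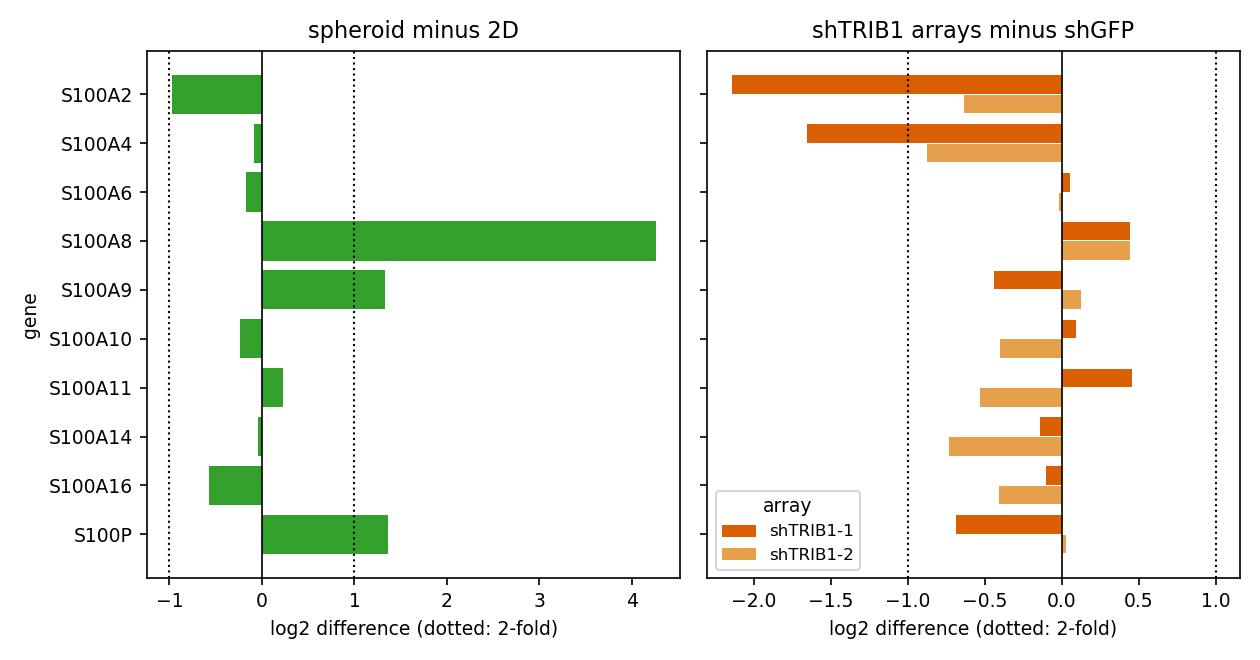
Log2 differences of the 10 S100 genes, spheroid minus 2D on the left and each shTRIB1 array minus shGFP on the right, 1 bar per array difference, with dotted lines at 2-fold; there are no error bars because 1 array stands on each side of every bar. S100A8 (4.26), S100P (1.36) and S100A9 (1.33) pass 2-fold on the left, and S100A2 (-2.15) and S100A4 (-1.66) pass it on the right with shTRIB1-1 alone.

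The regions just upstream of the genes with the widest differences are printed to show which letters the genes share there. They are the 250 bases before the transcript start in RefSeq (GRCh38.p14), 5′ to 3′ on the gene's strand, in lower case. Capitals mark a TATA box (TATAAA) that begins 20 to 40 bases before the start, every C/EBP core (TTNNGNAA, either strand) and every AP-1 site (TGANTCA). All 10 genes matched the RefSeq promoter table, with 14 starts in all. S100A8 has 3 starts there and the 1 with a TATA box is shown. S100A2 has 2, none with such a box, and the outermost is shown. S100A8 lies at chr1:153391074-153391323 (minus strand), S100A9 at chr1:153357604-153357853 (plus strand), S100P at chr4:6693628-6693877 (plus strand), S100A4 at chr1:153545807-153546056 (minus strand) and S100A2 at chr1:153565845-153566094 (minus strand).
S100A8: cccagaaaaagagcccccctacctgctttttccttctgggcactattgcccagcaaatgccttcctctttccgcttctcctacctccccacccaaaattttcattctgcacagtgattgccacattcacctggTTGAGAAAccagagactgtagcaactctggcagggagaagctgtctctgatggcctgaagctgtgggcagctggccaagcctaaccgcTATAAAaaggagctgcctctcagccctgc
S100A9: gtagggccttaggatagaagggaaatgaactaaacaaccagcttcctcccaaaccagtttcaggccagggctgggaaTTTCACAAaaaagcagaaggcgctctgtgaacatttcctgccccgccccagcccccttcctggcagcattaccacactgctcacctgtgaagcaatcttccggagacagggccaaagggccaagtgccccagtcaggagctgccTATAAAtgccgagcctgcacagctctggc
S100P: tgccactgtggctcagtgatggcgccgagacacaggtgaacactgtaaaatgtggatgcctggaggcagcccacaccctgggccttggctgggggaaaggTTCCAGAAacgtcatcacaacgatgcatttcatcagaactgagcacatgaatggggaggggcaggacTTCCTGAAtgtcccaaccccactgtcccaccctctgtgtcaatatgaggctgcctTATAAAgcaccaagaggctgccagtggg
S100A4: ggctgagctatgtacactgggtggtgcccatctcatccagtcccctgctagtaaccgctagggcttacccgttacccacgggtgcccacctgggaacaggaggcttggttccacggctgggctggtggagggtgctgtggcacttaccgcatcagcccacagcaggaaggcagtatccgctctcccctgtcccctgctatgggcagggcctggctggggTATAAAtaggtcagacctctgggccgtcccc
S100A2: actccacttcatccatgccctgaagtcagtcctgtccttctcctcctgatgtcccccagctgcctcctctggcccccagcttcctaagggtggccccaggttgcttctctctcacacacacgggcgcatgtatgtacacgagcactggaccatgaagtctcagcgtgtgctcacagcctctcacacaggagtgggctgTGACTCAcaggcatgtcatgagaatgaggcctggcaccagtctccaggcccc

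S100A8, S100A9 and S100P, the 3 genes past 2-fold in the spheroid array, each had a TATA box near the start, beginning 29 bases upstream in S100A8 and S100A9 and 28 bases upstream in S100P. S100A4 had 1 as well, 31 bases upstream, and differed between spheroid and 2D by -0.089. The other 6 S100 genes had no exact TATAAA in this place at any start. S100A6 and S100A14 have the near match TATAAG close to the start, and differed by -0.17 and -0.037. Near matches were not counted over all genes. The exact TATAAA lay in this place at 4 of the 14 starts. Of all 35114 starts in the table, 2.30% had a TATA box in this place. A C/EBP core occurred in the windows of S100A8 (117 bases before the start shown), S100A9 (173) and S100P (83 and 150), and also in those of S100A6, S100A11 and S100A16. That is 6 of 10 genes and 7 of their 14 starts, where 33.2% of all starts have one. An AP-1 site occurred for S100A2 alone (52 bases before the start), at 1 of the 14 starts, against 6.57% of all starts. An NF-kB pattern (GGGA and CC with 4 bases of any kind between them, either strand) occurred at 4 of the 14 starts, of S100A2, S100A4, S100A10 and S100A14, where 22.6% of all starts have one, and a STAT pattern (TTCNNNGAA) in none, against 6.57%. Each match is a description of letters in this window and not evidence of binding.

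The shTRIB1 arrays were compared with shGFP to ask which S100 genes differ with a hairpin against TRIB1. The TRIB1 signal itself differed little, by -0.055 and -0.20. A difference here is therefore tied to the hairpin label and not to a measured loss of TRIB1. S100A2, S100A4, S100A14 and S100A16 were lower on both shTRIB1 arrays. The share of all genes lower on both by any amount was not counted, so this shared direction has no background beside it. Against the 2D array, S100A4 and S100A14 were also lower on both. S100A2 was higher than 2D with shTRIB1-2 (0.22), and S100A16 with shTRIB1-1 (0.13). S100A2 and S100A4 were lower with shTRIB1-1 than with shTRIB1-2 and had the lowest means over both arrays. S100A14 and S100A16 were lower with shTRIB1-2. Both hairpin differences share the 1 shGFP array, so an SD over them does not hold the spread of that array. S100A8 was below the level filter on all 3 hairpin arrays, which left 9 S100 genes. No S100 gene was at least 2-fold higher on both arrays (0.361% of 10522 genes) or 2-fold lower on both (0.0855%). With shTRIB1-1, 2 S100 genes were at least 2-fold lower (1.86% of genes) and none 2-fold higher (2%). With shTRIB1-2 none was 2-fold lower (0.817%) or higher (1.34%). The median over the 9 genes was -0.14 with shTRIB1-1 and -0.41 with shTRIB1-2, against -0.027 and -0.0095 over all genes.

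S100A2 was at 12.50 on the shGFP array, 10.36 on shTRIB1-1 and 11.87 on shTRIB1-2, or an intensity of 5799, 1311 and 3739. This was -2.15 and -0.63 from shGFP, on average -1.39 ± 1.07 (SD, n = 2). Of all genes compared, 0.067% were lower with shTRIB1-1 and 3.40% were lower with shTRIB1-2. The 2D array, at 11.65, lay between the hairpin arrays, so shTRIB1-1 differed from it by -1.30 and shTRIB1-2 by 0.22. The direction for shTRIB1-2 therefore depends on which control array is used.

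S100A4, also called metastasin, binds non-muscle myosin and is tied to cell motility. It was at 10.88 with shGFP, 9.22 with shTRIB1-1 and 10.00 with shTRIB1-2. It differed from shGFP by -1.66 and -0.87, on average by -1.27 ± 0.55 (SD, n = 2). The 2D array (10.44) and the spheroid array (10.35) both lay above the 2 shTRIB1 arrays, so S100A4 was lowest on the 2 shTRIB1 arrays among all 5. Against 2D the differences were -1.22 and -0.44.

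S100A14, S100A16 and S100P had smaller mean differences, of -0.44, -0.26 and -0.33. S100A14 differed by -0.14 and -0.73, from 7.12 with shGFP, so on the shTRIB1-2 array it was further from shGFP than S100A2. S100A16 differed by -0.10 and -0.41, from 11.97. S100P differed by -0.69 and 0.03, so its lower value rests on shTRIB1-1, and against the 2D array it was higher by 0.52 on average. S100A9 differed by -0.44 and 0.13, S100A10 by 0.09 and -0.40 and S100A11 by 0.46 and -0.53, each with opposite signs on the 2 arrays. S100A6, the most even gene of the family here, differed by 0.053 and -0.014. A dim second probe set of S100A6, 228923_at, gave 0.78 and 0.05.

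Limma called none of the 9 genes at an adjusted p of 0.05, as it called 0% of all genes. For S100A4, lower on 2 of 2 arrays, limma gave an SE of 0.50, a 95% interval of -3.44 to 0.91 and an adjusted p of 0.951. For S100A2 limma gave an SE of 0.94, an interval of -5.51 to 2.73 and an adjusted p of 0.951. Over the alternatives the adjusted p ran from 0.562 to 1.00 for S100A4 and from 0.689 to 1.00 for S100A2. At an unadjusted p under 0.05 limma held 0 of the 9 genes and 3.38% of all genes. The fit has 1 residual degree of freedom and 0.96 prior ones drawn from all genes compared. An SE is therefore not the spread of that gene alone. The intervals reach past 2-fold in both directions for 6 of the 9 genes, all but S100A4, S100A6 and S100A16. A rule on the mean of both arrays, added after the data were seen, put S100A2 and S100A4 past 2-fold lower (0.352% of genes) and none past 2-fold higher (1.06%).

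**Figure D3:**
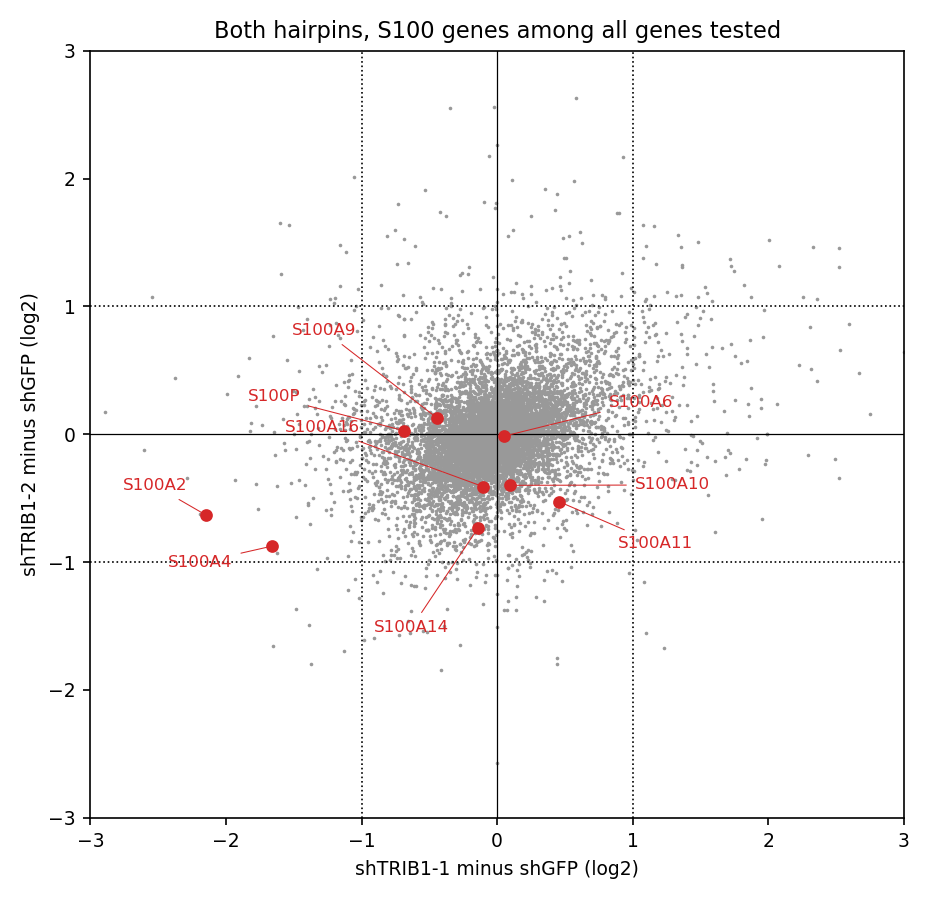
Log2 difference from shGFP on the shTRIB1-1 array (horizontal axis) and the shTRIB1-2 array (vertical axis) for 10522 genes in grey and 9 S100 genes in red, with dotted lines at 2-fold. S100A2 and S100A4 lie at the left edge (-2.15 and -1.66), and no S100 gene is past 2-fold on both axes; both axes use the same shGFP array, and 11 genes fall outside the plot.

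The 2 shTRIB1 arrays differed from each other for several S100 genes, in a comparison without a control array. S100A2 was higher on shTRIB1-2 than on shTRIB1-1 by 1.51, the only 1 of the 9 past 2-fold (5.06% of genes). S100A4 was higher on shTRIB1-2 by 0.78, S100P by 0.72 and S100A9 by 0.57. S100A11 was lower on shTRIB1-2, by -0.99, S100A14 by -0.59, S100A10 by -0.49 and S100A16 by -0.31. S100A6 differed by -0.067. With 1 array per hairpin, the effect of a hairpin and the spread between arrays cannot be told apart.

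The shGFP and 2D arrays, both without a TRIB1 hairpin, were not set against each other by the study; their actin ratios, given above, also differ, and the part of this in the values was not tested. S100A8 was below the level filter on both arrays, which left 9 S100 genes. None of them was 2-fold higher (2.13% of 10450 genes) or lower (2.11%) with shGFP. S100P was higher with shGFP by 0.85, S100A2 by 0.85 and S100A4 by 0.44. S100A11 differed by -0.48, S100A14 by -0.27 and S100A9 by -0.21. S100A16 differed by 0.23, S100A6 by 0.14 and S100A10 by 0.00. The difference of S100P between these control arrays was thus larger than its mean difference between the shTRIB1 and shGFP arrays (-0.33). For S100A4 and S100A2 the mean hairpin difference was the larger (-1.27 and -1.39). On shTRIB1-2 alone, however, S100A2 differed from shGFP by -0.63, less than the 0.85 between these control arrays. The second S100A10 probe set, 238909_at, read 7.95 with shGFP and 6.84 in 2D, a difference of 1.11 that the main S100A10 probe set, at 12.61 on both arrays, did not show.

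Of the 20 S100 family genes with a probe set, 16 lie on chromosome 1, and 9 of the 10 genes described here are among them, S100P on chromosome 4 being the exception. In RefSeq order the block begins with S100A10 and S100A11, followed after 47 other coding genes by S100A9, S100A12, S100A8, S100A7A, S100A7, S100A6, S100A5, S100A4, S100A3, S100A2, S100A16, S100A14, S100A13 and S100A1 with no coding gene between them. S100A12, the neighbour between S100A9 and S100A8, stayed at 4.10 to 4.26 on all 5 arrays, below the filter. S100A7A and S100A7, on the other side of S100A8, were also below 6 everywhere. The higher signal of S100A8 and S100A9 in the spheroid array was thus not seen for S100A12, S100A7A and S100A7. Signals under the filter can show little, and coding genes outside the family were not placed in this order.

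S100A4, S100A3 and S100A2 are direct neighbours. S100A3 was dim, at 6.07 with shGFP, 5.67 and 5.68 on the shTRIB1 arrays, 5.95 in 2D and 5.21 in the spheroid array. Its differences from shGFP were -0.41 and -0.40. On either side of these 3 genes, S100A5 was below the filter on the hairpin arrays and S100A16 differed by -0.10 and -0.41. S100A13 was the 1 other family gene with a strong signal. It was at 11.08 in 2D and 10.25 in the spheroid array, a difference of -0.83, and differed by -0.21 and 0.0037 on the shTRIB1 arrays. S100A5 reached 6.04 in the spheroid array, from 5.54 in 2D. The other 7 family genes, S100A1, S100A7, S100A7A, S100A12, S100B, S100G and S100Z, were below 6 on every array.

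**Figure D4:**
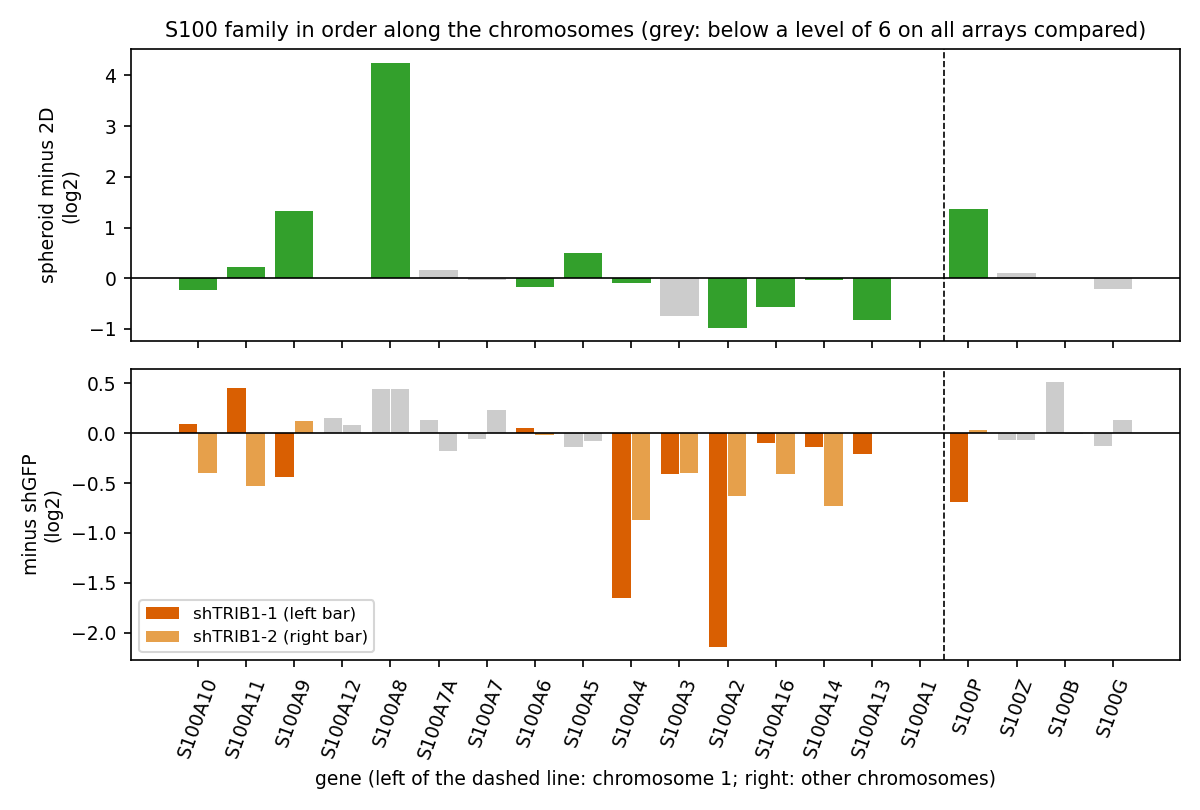
Log2 differences of the 20 S100 family genes in RefSeq order along the chromosomes, spheroid minus 2D above and each shTRIB1 array minus shGFP below; grey bars are genes below a level of 6 on all arrays compared, and no error bars are drawn because each bar is 1 array minus 1 array. S100A8 and S100A9 stand up in the upper panel with the dim S100A12 between them, and S100A4 and S100A2 reach down in the lower panel on either side of the dim S100A3.

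Partners and receptors of S100 proteins were read from a list of 20 genes, of which 19 had a probe set and 17 passed the level filter in each comparison. In the spheroid array the median over the 17 was 0.01. None was 2-fold lower (5.23% of all 10570 genes) and 1 was at least 2-fold higher (5.05%). That gene was ANXA1, the calcium-dependent membrane binder that pairs with S100A11, at 9.95 in 2D and 11.45 in the spheroid array. The hairpin arrays read 10.75 (shGFP), 10.84 (shTRIB1-1) and 10.31 (shTRIB1-2) for ANXA1. The 2D array was thus the lowest of all 5, and shGFP already differed from it by 0.80. S100A11, the partner of ANXA1, differed by 0.22. ANXA2, the partner of S100A10, differed by -0.45, from 13.60 to 13.15, beside -0.24 for S100A10. EZR (ezrin, bound by S100P) differed by 0.01 and MYH9 (the myosin bound by S100A4) by -0.10. Of the receptors, BSG differed by 0.50 and TLR4 by 0.49, with TLR4 at 5.81 in 2D and 6.31 in the spheroid array. TLR4 thus passed the filter through the spheroid array alone. AGER stayed between 5.64 and 5.85 and did not pass the filter. CD36, a fatty acid receptor, read 3.35 in 2D and 4.86 in the spheroid array and did not pass it either.

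On the shTRIB1 arrays none of the 17 partner genes was 2-fold higher on both (0.361% of 10522 genes) or lower on both (0.0855%). Limma called none, as it called 0% of all genes. TLR4 read 6.51 with shGFP, 5.53 with shTRIB1-1 and 4.90 with shTRIB1-2. It passed the filter through the shGFP array alone, so it could only count as lower. The 2D array, at 5.81, was also under the filter. MYH9 differed by 0.16 and 0.08, next to the lower S100A4. EZR differed by 0.75 and 0.15, and CACYBP, the partner of S100A6, by 0.16 and -0.10.

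Epidermal differentiation genes from the same block of chromosome 1 and its cornified envelope partners were read from a list of 16, of which 13 had a probe set. None reached a level of 6 on any array, with levels between 2.37 and 5.35. Of the squamous keratinocyte markers, KRT5, KRT14, KRT1 and KRT13 were likewise below 6 on all arrays, and KRT10 was at 10.80 to 10.93.

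Myeloid cells are the best known source of S100A8 and S100A9, so their markers were read beside them. Of 10 markers 9 had a probe set, and none reached 6 on any array, with levels from 3.24 to 5.60. CD14 was at 3.68 in 2D and 3.74 in the spheroid array, and PTPRC at 3.64 and 3.61. The widest differences of the list were 0.52 for LYZ (3.75 to 4.27) and -0.41 for ELANE (3.65 to 3.24). The summed intensity of the 9 markers was 175 to 179 on the 5 arrays, including 178 in 2D and 177 in the spheroid array. Every term of that sum lies under the filter, so the sum could show little change.

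Transcription factors reported for S100A8 and S100A9 were read from a list of 9, of which 5 passed the filter in the spheroid comparison. The C/EBP factor CEBPD was 2-fold higher in the spheroid array, at 9.33 against 8.14 (1.20), as were 5.05% of all genes. CEBPB was at 12.67 against 11.73 (0.94). JUNB differed by 0.49, RELA by 0.18 and HIF1A by -0.088. On the shGFP, shTRIB1-1 and shTRIB1-2 arrays CEBPD was at 8.55, 8.59 and 9.10, all below the spheroid array. CEBPB was at 12.58, 12.72 and 12.58 on the same arrays, with shTRIB1-1 above the spheroid array. The part of these factors in the S100 differences was not tested.

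For the 3 S100 genes with the widest range, the genes with the most similar profile were found as those with the smallest mean absolute difference between levels centred on their own mean, over 5 arrays and 10843 genes. Nearest to S100A8 were CA1 (a carbonic anhydrase, mean absolute difference 0.16), CYP4X1 (0.20) and FCGBP (0.22), each higher in the spheroid array. CA1 was at 5.25 in 2D and 9.25 in the spheroid array. CYP4X1 differed by 4.15, from 5.05 in 2D, and FCGBP by 4.09, from 6.04. The 2D values of CA1 and CYP4X1 were under the filter. Nearest to S100A9 were CARINH (0.10), TK2 (a mitochondrial thymidine kinase, 0.11) and MFAP3L (0.11), higher in the spheroid array by between 1.25 and 1.40. Nearest to S100A2 were MOSMO (0.24), the neurofilament gene NEFL (0.27) and LIF-AS2 (0.28), lower in the spheroid array by -1.23, -1.30 and -0.66. MOSMO read 5.90 in 2D and 4.67 in the spheroid array, both under the filter. LIF-AS2 read 5.75 in the spheroid array, also under it. With 5 arrays many genes can have near profiles, and these are named as a description only.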

How the data were processed

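RNA from PC-3 cells was hybridised to 5 Affymetrix arrays, 1 per sample. The deposited values are probe set intensity on a linear scale, made by the authors with RMA, per the submitters' processing notes; the linear scale was read from the values, and the sources used here do not give the RMA version or chip definition file. RMA makes array distributions nearly equal (median intensity 32.97 to 33.36), which would hide a shift of most genes. Log2 was taken without a pseudocount. Of 54675 probe sets, 41097 carried 1 symbol in the platform annotation, and 1801 with several were left out. RefSeq GRCh38.p14 gave promoters and gene order. Limma 3.58.1 in R 4.3.3 (intensity trend, Benjamini-Hochberg over all genes) compared 2 shTRIB1 arrays with 1 shGFP array. Its mean estimates were checked on simulated data in which all genes had the same spread. That check does not show how its p-values and intervals behave on these data. Other comparisons have 1 array a side and no test. Alternatives changed the probe set, filter, pseudocount, centring, reference array and fit. The genes and lists were chosen with earlier results of these data known. Genes named are the 10 S100 genes, family genes reaching 6, and the 3 nearest profiles of the 3 widest-ranging genes. From the lists, genes past 2-fold were named with 3 further abundant ones. Further list genes were named as partners of an S100 gene, after their values were seen. Some cell type markers were named outside this rule.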

Additional observations from a re-analysis of the deposited data

How the results depend on the processing

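The count of S100 genes 2-fold up in the spheroid array was 3, and 2 under 4 alternatives. S100A8 was lost without _s_at and _x_at probe sets (0.31, the dim second probe set) and as the median of both probe sets (2.28, with a level that then misses the filter). S100P was lost against the average of 2D and shGFP (0.94) and against the nearest other array (0.48, added after the data were seen). The count 2-fold lower was 0, and 1 (S100A2) against the average of 2D and shGFP. The count 2-fold lower on both shTRIB1 arrays ranged from 0 to 2 when either array was left out, which leaves 1 array and no test, and was 2 by the mean of both arrays. With 1 array left out, the mean difference ranged from -0.40 to 0.093 for S100A10, -0.53 to 0.46 for S100A11, -0.014 to 0.053 for S100A6, -0.44 to 0.13 for S100A9 and -0.69 to 0.028 for S100P, turning sign in each. S100P also turned against the 2D array (0.52) and against the mean of 2D and shGFP (0.096). S100A4 has an _s_at probe set alone and gave no value without those. No paired analysis was possible because the groups share fewer than 2 replicate numbers. Signals near background (S100A8 outside the spheroid array, S100A3, S100A5, S100A14, TLR4, 228923_at) limit what their differences can show.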
